A study of Mus musculus with 24 samples.

Results

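The 10 genes described here are Flt3, Dntt, Il7r, Satb1, Rag1, Rag2, Notch1, Cd34, Cd48 and Ccr9, which mark or drive the first steps of blood progenitors towards lymphocytes. They were taken by name from a count table of 56748 genes, and all 10 were found there. Of these, 8 had counts in the libraries and passed the filter on low counts, and 2, Rag1 and Rag2, were listed at 0 in all 24 libraries. The study sequenced RNA of sorted blood stem and progenitor cells of the mouse, and its title places it in work on RNA held in P-bodies, cytoplasmic granules of RNA and repressive proteins, in myeloid leukaemia. The 8 groups of 3 libraries were KO and WT haematopoietic stem cells (HSC) and KO and WT multipotent progenitors labelled MPP1, MPP2 and MPP4. Animals of both genotypes had been given tamoxifen, so the WT groups carry the drug too. The cells were isolated out of bone marrow by the protocol, although the tissue field reads blood. The knocked-out gene, any Cre driver, the strain, the age, the sex and the surface markers of each sort are not stated in the labels.

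Multipotent progenitors that begin to express lymphoid genes before they lose other fates are called lymphoid primed. Flt3 is the receptor for a growth signal that such cells need, and in most schemes of sorting its protein on the surface defines MPP4. Notch1 is the receptor that commits progenitors to the T-cell fate in the thymus. Il7r is the receptor chain through which interleukin 7 keeps early lymphocytes alive and dividing. Dntt is the polymerase that adds bases at the joints of rearranged antigen receptor genes. Rag1 and Rag2 together cut the DNA for that rearrangement, and Satb1 is a chromatin organizer that primes lymphoid genes in stem cells and thymocytes. Ccr9 is a chemokine receptor that guides progenitors to the thymus. Cd34 and Cd48 are surface proteins used to sort stem and progenitor cells.

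The promoters of Flt3, Dntt, Il7r and Notch1 are printed because these 4 genes were the members called higher in KO-labelled MPP1. Each run covers 250 bases before to 50 bases after the start of the gene, in the direction of transcription, from RefSeq on GRCm38.p6. The submitters used mm39, so these positions were joined to the counts by gene name only. Capitals mark matches to 6 motifs searched on both strands: the E-box CANNTG, bound by helix-loop-helix factors, its E2A-type form CAGGTG, which is a subset of it, the Ikaros or RBPJ core TGGGAA, the ETS core GAGGAA, the Runx core TGTGGT and the TATA box TATAAA.
Flt3, chr5:147400440-147400739, minus strand: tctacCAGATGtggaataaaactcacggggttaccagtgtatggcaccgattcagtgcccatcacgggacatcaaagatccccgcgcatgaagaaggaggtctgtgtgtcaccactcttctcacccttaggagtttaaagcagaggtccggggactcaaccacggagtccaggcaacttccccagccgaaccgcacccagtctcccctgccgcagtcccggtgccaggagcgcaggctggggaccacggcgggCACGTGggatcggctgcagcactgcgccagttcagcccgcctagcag
Dntt, chr19:41029025-41029324, plus strand: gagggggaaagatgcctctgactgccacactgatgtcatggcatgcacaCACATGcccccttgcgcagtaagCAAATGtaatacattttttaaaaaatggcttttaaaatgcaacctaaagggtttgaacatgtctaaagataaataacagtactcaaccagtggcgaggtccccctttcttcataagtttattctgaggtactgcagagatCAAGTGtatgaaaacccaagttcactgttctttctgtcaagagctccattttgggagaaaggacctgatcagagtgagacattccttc
Il7r, chr15:9529827-9530126, minus strand: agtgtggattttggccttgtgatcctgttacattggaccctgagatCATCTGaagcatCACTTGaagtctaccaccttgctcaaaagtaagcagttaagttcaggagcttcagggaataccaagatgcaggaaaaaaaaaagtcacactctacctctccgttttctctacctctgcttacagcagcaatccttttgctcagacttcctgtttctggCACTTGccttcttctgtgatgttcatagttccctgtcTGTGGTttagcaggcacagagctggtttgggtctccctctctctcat
Notch1, chr2:26503773-26504072, minus strand: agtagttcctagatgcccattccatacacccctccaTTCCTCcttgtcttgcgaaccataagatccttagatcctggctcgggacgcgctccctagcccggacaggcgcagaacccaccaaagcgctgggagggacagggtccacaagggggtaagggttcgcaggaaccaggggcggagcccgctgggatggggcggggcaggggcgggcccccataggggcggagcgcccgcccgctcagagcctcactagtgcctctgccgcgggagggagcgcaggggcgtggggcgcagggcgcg
Flt3 held 2 E-boxes, Dntt 3, and Il7r 3 with 1 Runx core. Notch1 held 1 ETS core, read on the strand opposite to the gene, and no E-box. An E-box was in 72.3% of 32851 promoters of this length, a Runx core in 16.8% and an ETS core in 28.3%, so these matches are common. The E2A-type form was in 20.2% of promoters, the Ikaros or RBPJ core in 25.6% and the TATA box in 13.6%, and the 4 promoters held none of these in this window. GC content was 61% for Flt3, 42.3% for Dntt, 45.7% for Il7r and 68.3% for Notch1.

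Total counts were 2894916 to 3667509 in KO-labelled libraries and 2540511 to 3807003 in WT libraries. At least 1 count was found for 21477 to 25993 genes in a KO-labelled library and for 26856 to 30454 in a WT library. Ddx6, a P-body helicase known as the gene this study deleted but not named in the labels, had 194 to 308 counts in KO-labelled libraries and 154 to 319 in WT libraries. As deposited it was called higher in KO-labelled MPP1 (log2 0.61 ± 0.19, adjusted p = 0.0211), a call lost after the background subtraction described next (0.37, adjusted p = 0.308), and it was called lower in no population. For this reason the libraries are called KO-labelled throughout. The labels do not say that the 3 libraries of a group are different mice, so the spread behind every p-value may be technical. Counts over 1769 olfactory and vomeronasal receptor genes, which blood cells do not use, gave a background density per kb of gene span in each library. The share of all counts expected from it was 5.63 ± 0.191% in KO-labelled and 22.7 ± 1.66% in WT HSC (mean ± SD, n = 3 each), and 14.0 ± 0.292% in KO-labelled and 24.4 ± 0.901% in WT MPP1. It was 9.54 ± 0.699% in KO-labelled and 11.7 ± 0.182% in WT MPP2-labelled libraries, and 18.7 ± 0.325% in KO-labelled and 31.0 ± 0.0866% in WT MPP4-labelled libraries. Because this share differed with genotype, the counts of calls between genotypes are given as deposited and after subtraction of this background.

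The population labels were checked first against the genes that usually define them. In CPM, counts scaled to the normalized total of each library, Flt3 averaged 84.0 in KO-labelled and 64.5 in WT MPP4-labelled libraries, against 540 in KO-labelled and 1131 in WT MPP2-labelled libraries. Slamf1, whose protein CD150 marks stem cells and, in most schemes, MPP2, ran the other way, with 87.0 CPM in KO-labelled and 40.9 CPM in WT MPP4-labelled libraries, against 4.75 and 7.81 CPM in KO-labelled and WT MPP2-labelled libraries. In KO-labelled libraries Itga2b, a megakaryocyte integrin, averaged 56.8 CPM in MPP4-labelled and 12.3 CPM in MPP2-labelled cells, and in WT libraries 71.9 CPM in MPP4-labelled and 11.0 CPM in MPP2-labelled cells. The RNA of these genes thus goes against the usual meaning of MPP2 and MPP4. In MPP1, Flt3 averaged 574 CPM in KO-labelled and 422 CPM in WT libraries, against 30.9 and 62.9 CPM in HSC. Slamf1 averaged 4.66 CPM in KO-labelled and 9.6 CPM in WT MPP1, against 250 and 72.3 CPM in HSC. Whether the label MPP1 carries its usual meaning was not tested. The groups are named below only as they were labelled, and how far the 4 populations differ in Flt3, Cd34 and Cd48 is a check of the sort, not a finding.

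Rag1 and Rag2 could not be read from this table. In the GENCODE M21 annotation both lie wholly inside the span of another gene, named Iftap in the count table, Rag1 on its strand and Rag2 on the other. Iftap had 86 to 233 counts per library. Background alone would give Rag1 between 5.11 and 22.9 counts in each group of 3 libraries and Rag2 between 3.55 and 15.9, and both had 0. This held widely in the table. Of 1270 protein-coding genes that lie inside another gene, 1102 (86.8%) had 0 counts in all 24 libraries, against 461 of 20601 (2.24%) that do not. The share was 83.9% where the outer gene was on the same strand and 88.1% where it was on the other strand. It was 80.1% (608 of 759) among those that touch no exon of the outer gene. No level of Rag1 or Rag2 is drawn from the 0 counts.

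**Figure D1:**
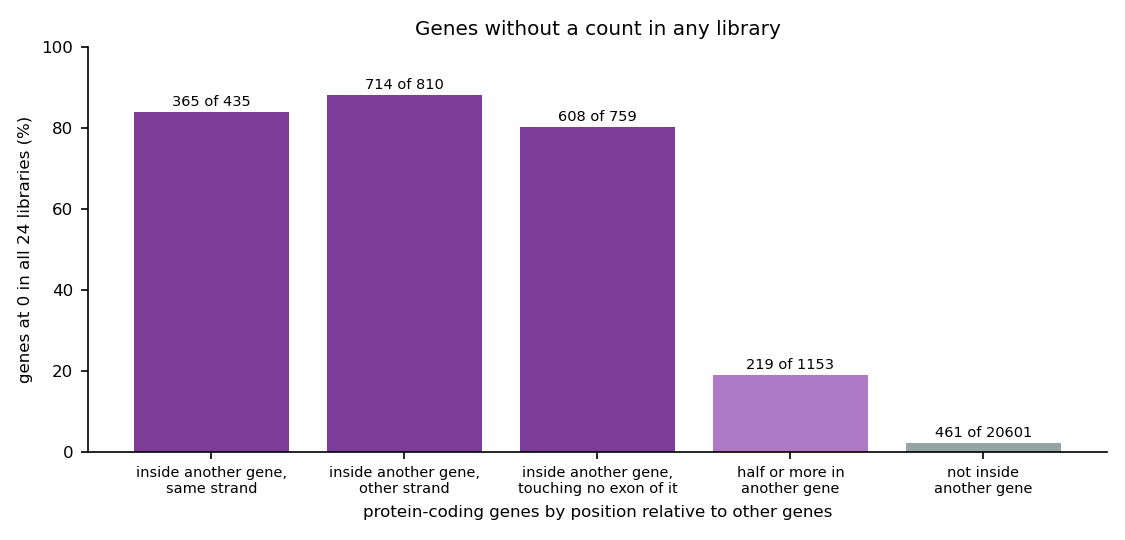
Share of protein-coding genes with 0 counts in all 24 libraries (%), by their position relative to other genes in GENCODE M21, with the number at 0 and the number of genes above each bar. Of genes inside another gene on the same strand 365 of 435 were at 0, against 461 of 20601 not inside another gene, which include 1153 with most of their span in another gene.

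The same annotation shows how much of each other member is shared. Dntt and Il7r overlap no other gene, and no other gene covers any exonic base of Cd48. The exonic bases in no other gene were 98.5% for Satb1, 95.6% for Flt3, 89.5% for Notch1 and 74.3% for Cd34, whose partner Gm16897 lies on the other strand. For Ccr9 only 47.4% of the span and 9.21% of the exonic bases lie in no other gene. Ccr9 had 700 counts over all 24 libraries, fewer than expected from background over its whole span in every group. The genes whose levels were most like those of Ccr9 were Crp, Skint6 and Mdga2, genes of liver, skin and nerve. Ccr9 values are therefore listed below without weight. They were 1.68 to 1.88 CPM in KO-labelled and 6.33 to 9.09 CPM in WT HSC, and 3.20 to 16.4 CPM in the other KO-labelled and 5.44 to 23.7 CPM in the other WT libraries.

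For the other 7 members the background expectation was small where they were high and large where they were low. It was 0.606% of the Flt3 count in WT MPP2-labelled libraries and 17.9% in WT HSC. It was 44.5% of the Dntt count in WT HSC and 67.3% of the Satb1 count there. Il7r had 10 counts against 11.1 expected in the 3 KO-labelled HSC libraries and 35 counts against 43.1 expected in the 3 WT HSC libraries, so its level in HSC could not be told from background in either genotype. In WT MPP1 it had 45 counts against 44.3 expected. In KO-labelled MPP1 it had 426 against 26.7 expected.

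**Figure D2:**
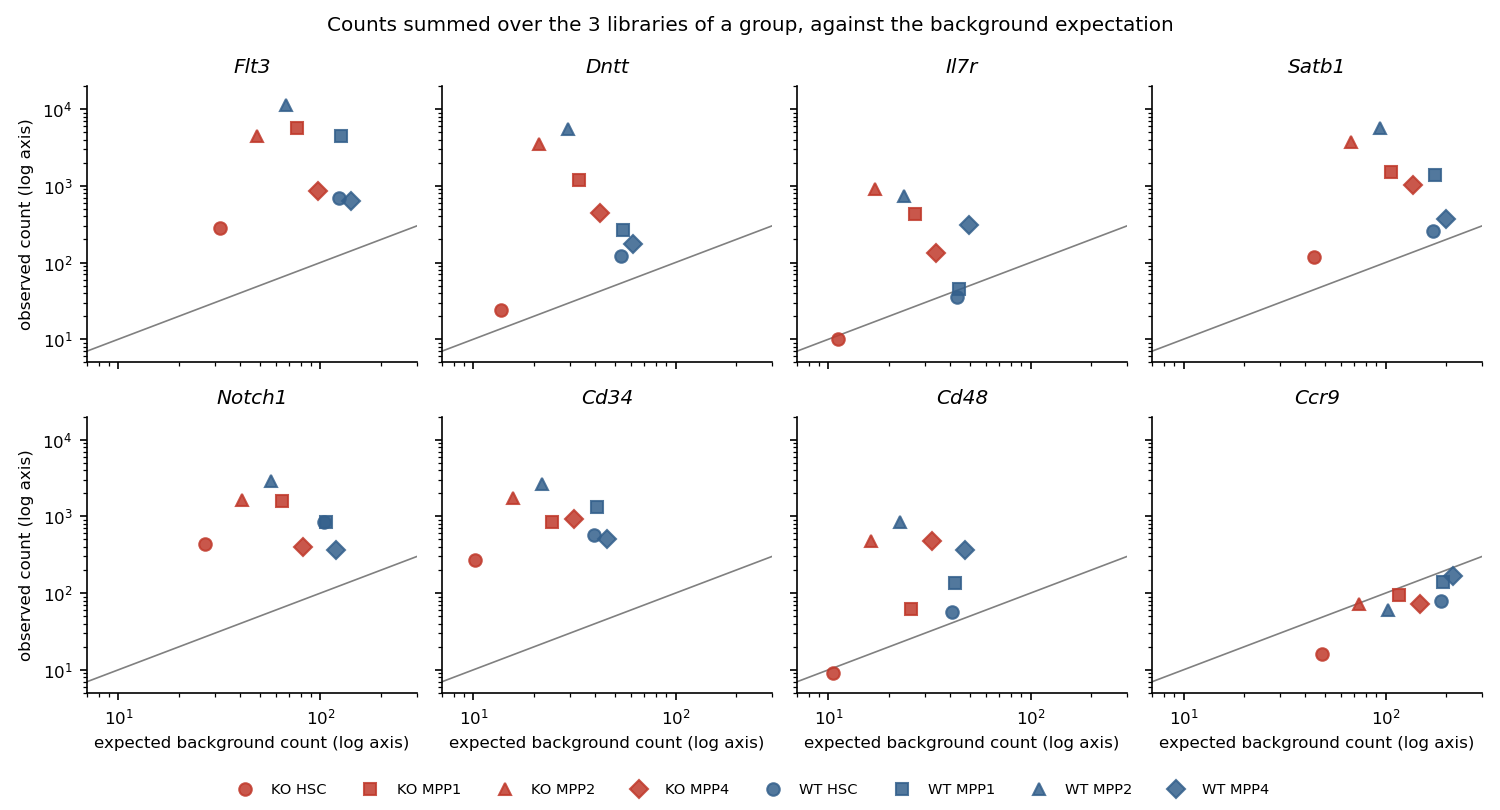
Observed count of 8 members, summed over the 3 libraries of a group (vertical, log axis), against the count expected from background (horizontal, log axis), with the grey line at equality. Il7r lay on the line in HSC of both genotypes and in WT MPP1, and Ccr9 lay below it in every group.

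Across populations, the 4 genes of the lymphoid programme with counts, Flt3, Dntt, Il7r and Satb1, had their lowest mean in HSC and, except Flt3 in KO-labelled cells, their highest in MPP2-labelled libraries. In KO-labelled cells all 4 were called higher in each other population than in HSC. In WT cells Flt3 was at 64.5 CPM in MPP4-labelled cells and 62.9 CPM in HSC (adjusted p = 0.934), Il7r was at background in both MPP1 and HSC (adjusted p = 0.901), and Dntt in MPP4-labelled cells missed the threshold against HSC (adjusted p = 0.0943). Satb1 averaged 13.2 ± 5.44 CPM in KO-labelled HSC and 153 ± 15.6 CPM in KO-labelled MPP1, against 438 ± 18.6 CPM in the KO-labelled MPP2 and 99.2 ± 17.4 CPM in the KO-labelled MPP4 libraries (SD, n = 3). It averaged 23.3 ± 3.40 CPM in WT HSC and 130 ± 14.3 CPM in WT MPP1, against 582 ± 26.3 CPM in the WT MPP2 and 36 ± 7.23 CPM in the WT MPP4 libraries. All 6 differences between populations were called for Satb1 in each genotype. In KO-labelled cells Flt3 averaged 574 ± 27.7 CPM in MPP1 and 540 ± 73.1 CPM in MPP2-labelled libraries, ranges that overlap (adjusted p = 0.66). Dntt in WT libraries was at 17.9 ± 5.55 CPM in MPP4-labelled and 25.2 ± 6.92 CPM in MPP1 libraries, and these neighbours did not differ beyond their spread (adjusted p = 0.31). Notch1 stood apart from this order in WT, where it was at 80.9 ± 2.15 CPM in MPP1 and 78.1 ± 9.80 CPM in HSC, and lowest, at 37.7 ± 11.2 CPM, in MPP4-labelled libraries.

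Counts of members called in these population contrasts are to be read knowing that the genes were chosen as markers of such populations. In WT, 5 of 8 members differed between MPP1 and HSC (3.79% of 21964 genes tested were called), 7 between MPP2-labelled cells and HSC (19.1%) and 4 between MPP4-labelled cells and HSC (10.3%). Between MPP4-labelled cells and MPP1, 6 differed (6.37%), between MPP4-labelled and MPP2-labelled cells 7 (27.3%), and between MPP2-labelled cells and MPP1 7 (15.6%). In KO-labelled cells, 8 differed between MPP1 and HSC (20%), 8 between MPP2-labelled cells and HSC (17.9%) and 7 between MPP4-labelled cells and HSC (29.8%). Between MPP4-labelled cells and MPP1, 6 differed (9.84%), between MPP4-labelled and MPP2-labelled cells 6 (15.5%), and between MPP2-labelled cells and MPP1 5 (12.7%). After subtraction, of 7 members, the counts for the WT contrasts were 6 between MPP1 and HSC (4.43%), 7 between MPP2 and HSC (10.6%), 4 between MPP4 and HSC (11.6%), 6 between MPP4 and MPP1 (6.92%), 5 between MPP4 and MPP2 (10.7%) and 7 between MPP2 and MPP1 (5.87%). For the KO-labelled contrasts they were 7 between MPP1 and HSC (5.34%), 7 between MPP2 and HSC (10%), 6 between MPP4 and HSC (9.07%), 5 between MPP4 and MPP1 (9.15%), 6 between MPP4 and MPP2 (5.77%) and 4 between MPP2 and MPP1 (7.22%). The 6 WT calls between MPP1 and HSC after subtraction include Il7r (log2 4.945, adjusted p = 0.044), which was at background in both groups. After subtraction Il7r averaged 1.35 CPM in WT MPP1 and 0 CPM in WT HSC, so no weight is put on this call. As deposited every called difference from HSC was upward, except Notch1 in WT MPP4-labelled cells, which was lower by a log2 value of -1.06.

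**Figure D3:**
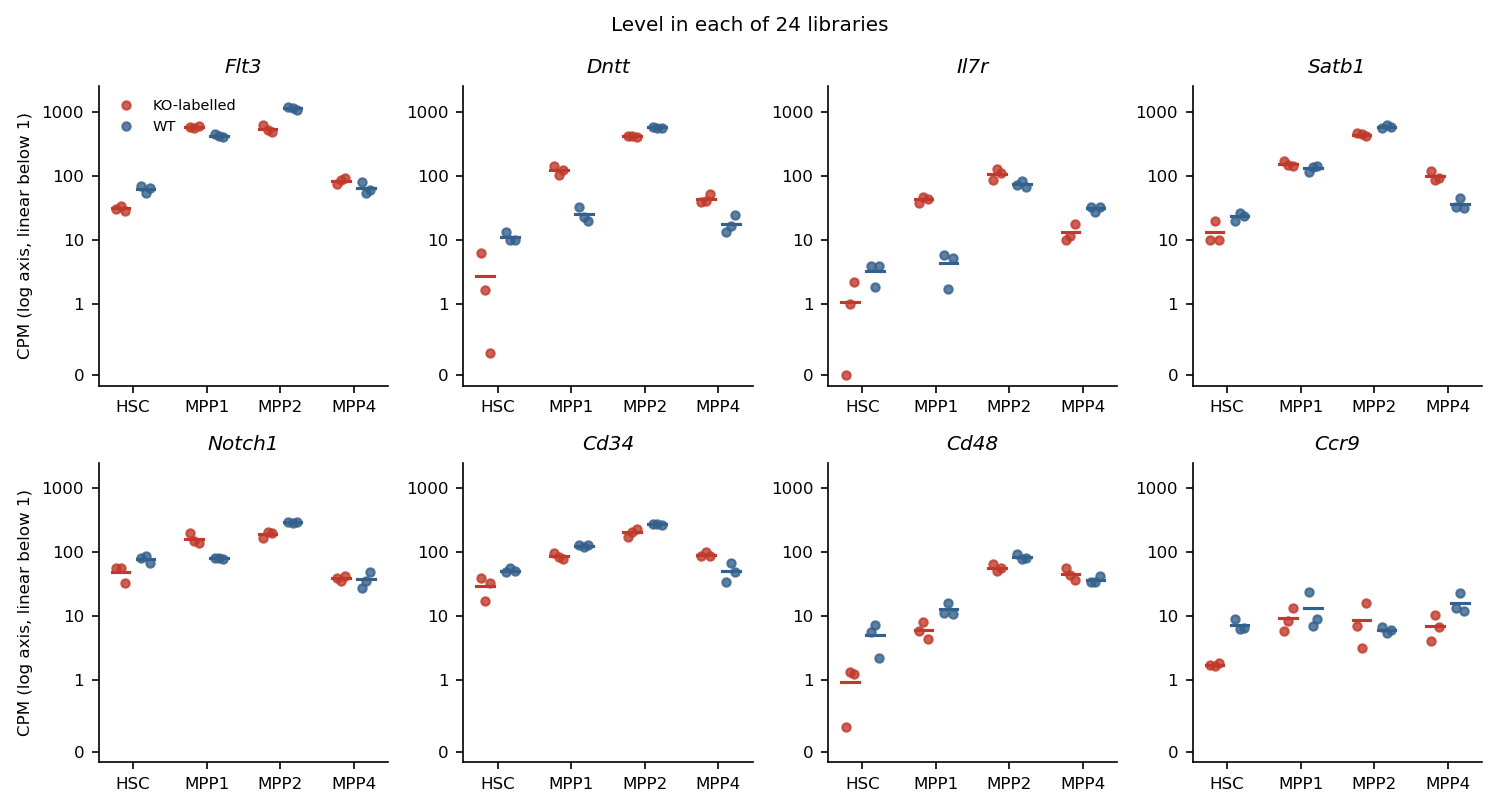
CPM of 8 members in each of the 24 libraries by population (points; horizontal bars are means of 3), with KO-labelled libraries left of WT. The vertical axis is logarithmic and linear below 1. Il7r in KO-labelled MPP1 lay between 37.2 and 47.1 CPM, above all WT MPP1 libraries.

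The comparison of KO-labelled with WT cells within a population asks how lymphoid priming differs with genotype at each stage. The difference itself varied between the populations for 7 of the 8 members by the test of the interaction of genotype and population (17.7% of all genes were called). The largest called rises among the members, those of Il7r and Dntt, were in MPP1. Il7r, Dntt, Notch1 and Flt3 were called higher in KO-labelled MPP1 and Cd34 and Cd48 lower, which is 4 of 8 higher (8.71% of all genes were called higher) and 2 lower (4.9%). Of all genes called in MPP1, 64.0% were higher, and 52.2% with median-of-ratios size factors. The median log2 fold change of the 8 members was 0.34, against -0.10 over all genes tested. After subtraction 3 of 7 tested members were called higher, Il7r, Dntt and Notch1 (3.19% of 18430 genes), and 1, Cd34, lower (2.83%). In sorted bulk RNA, a change in the number of cells that express a gene and a change in RNA per cell cannot be told apart.

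Il7r was at 37.2, 47.1 and 43.3 CPM in the KO-labelled MPP1 libraries, against 5.85, 1.70 and 5.29 CPM in the WT MPP1 libraries. The groups were far apart, and the WT values were at the background level. The log2 fold change was 3.31 ± 0.38 (SE, n = 3 against 3; 9.88-fold; Benjamini-Hochberg adjusted p = 8.71e-09 in edgeR's quasi-likelihood fit, as for every adjusted p not credited to DESeq2), and 5.01 ± 0.58 after subtraction (adjusted p = 5.14e-06). Dntt was at 144, 101 and 121 CPM in KO-labelled MPP1, against 33.0, 23.0 and 19.8 CPM in WT MPP1. Every KO-labelled library lay well above every WT library, a 4.84-fold difference in the fit (log2 2.27 ± 0.22, adjusted p = 1e-10; 2.24 after subtraction). Notch1 was at 197, 147 and 137 CPM in KO-labelled MPP1, against 81.8, 82.5 and 78.5 CPM in WT MPP1. The groups did not overlap, and the log2 fold change was 0.98 ± 0.18 (adjusted p = 5.53e-05; 0.78 after subtraction, adjusted p = 0.0279).

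Flt3 moved much less in MPP1. It was at 579, 545 and 600 CPM in KO-labelled MPP1, against 444, 416 and 405 CPM in WT MPP1. The groups did not overlap and the log2 fold change of 0.45 ± 0.11 was called (adjusted p = 0.00371), but after subtraction it was 0.13 ± 0.13 and the call was lost (adjusted p = 0.719). Background was only 1.34% of the Flt3 count in KO-labelled and 2.85% in WT MPP1. Scaled to the totals left after subtraction, Flt3 averaged 636 CPM in KO-labelled and 581 CPM in WT MPP1. Satb1 was at 171, 145 and 143 CPM in KO-labelled MPP1, against 114, 137 and 140 CPM in WT MPP1, a log2 fold change of 0.23 ± 0.15 (adjusted p = 0.345) that was -0.014 after subtraction. Cd34 was at 79.0 to 95.7 CPM in KO-labelled and 119 to 129 CPM in WT MPP1 (log2 -0.54 ± 0.19, adjusted p = 0.0466), and this call was lost when any 1 of the 6 MPP1 libraries was left out (adjusted p of 0.0568 to 0.165). Cd48 was at 4.36 to 8.28 CPM in KO-labelled and 10.9 to 16.2 CPM in WT MPP1, and its call (log2 -1.04 ± 0.35, adjusted p = 0.0393) was lost after subtraction (adjusted p = 0.0798) and without any 1 of the 3 WT libraries or KO-labelled replicate 1 or 3 (adjusted p of 0.0514 to 0.198). Background was 41.1% of the Cd48 count in KO-labelled and 31.3% in WT MPP1.

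In HSC the lymphoid members were low in both genotypes. Of Flt3, Dntt, Il7r and Satb1, only Flt3 and Dntt were called lower in KO-labelled cells both as deposited and after subtraction. As deposited all 8 members were called lower and 0 higher, where 24.8% of all genes were called lower and 18.3% higher. These 8 include Ccr9, listed without weight, and Il7r, at background in both genotypes. After subtraction 5 of 7 were called lower, Flt3, Dntt, Notch1, Cd34 and Cd48, and 0 higher, where 4.19% of all genes were called lower and 4.42% higher. The median log2 fold change of the members was -1.27 as deposited, against -0.31 over all genes, and -1.29 after subtraction, against -0.18 over all genes.

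Flt3 was at 30.5, 33.6 and 28.6 CPM in KO-labelled HSC, against 70.2, 53.3 and 65.3 CPM in WT HSC. Each KO-labelled library was below each WT library, and the log2 fold change was -1.03 ± 0.13 (adjusted p = 4.34e-08; -1.47 after subtraction, adjusted p = 1.17e-06). Dntt had 18, 5 and 1 counts in the KO-labelled HSC libraries, against 48, 37 and 35 counts in the WT HSC libraries. Its log2 fold change was -2.03 ± 0.37 (adjusted p = 2.7e-05; -2.50 after subtraction, adjusted p = 0.00776). It was -3.44 without KO-labelled replicate 1 and -1.47 without KO-labelled replicate 3, and was called in both. Background was 57.4% of the KO-labelled and 44.5% of the WT count. Notch1 was at 56.1, 56.4 and 33.0 CPM in KO-labelled HSC, against 80.4, 86.5 and 67.3 CPM in WT HSC, a log2 fold change of -0.69 ± 0.18 (adjusted p = 0.00243; -1.15 after subtraction, adjusted p = 0.00145). KO-labelled replicate 3 was the lowest of these, and the groups did not overlap.

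Satb1 was at 10.04, 19.5 and 10.05 CPM in KO-labelled HSC, against 19.8, 26.6 and 23.3 CPM in WT HSC. Its groups nearly touched, its call (log2 -0.82 ± 0.20, adjusted p = 0.00103) was lost after subtraction (-0.43 ± 0.39, adjusted p = 0.53), and 37.1% of the KO-labelled and 67.3% of the WT count was background. Il7r had 0, 3 and 7 counts in KO-labelled HSC, against 14, 7 and 14 counts in WT HSC, all at the background level. Its call (log2 -1.51 ± 0.57, adjusted p = 0.0304) turned to 2.97 ± 1.60 after subtraction (adjusted p = 0.252) and was lost without WT replicate 1 or 3 or KO-labelled replicate 1 or 2 (adjusted p of 0.0793 to 0.175), and the log2 value was -2.57 without KO-labelled replicate 3. Cd48, which stem cells lack on their surface, had 1, 4 and 4 counts in KO-labelled HSC, against 21, 28 and 8 counts in WT HSC (log2 -2.34 ± 0.51, adjusted p = 0.000258; -4.22 ± 0.99 after subtraction, adjusted p = 0.00782). The 9 counts in KO-labelled HSC were at background, with 10.6 expected, and 72.1% of the WT count was background. Cd34 was at 39.8, 17.1 and 32.7 CPM in KO-labelled HSC, against 48.2, 55.9 and 51.1 CPM in WT HSC (log2 -0.79 ± 0.20, adjusted p = 0.00185; -1.29 after subtraction). Lists of other cells moved with genotype in HSC. The stem cell list summed to 11310 to 11760 CPM in KO-labelled and 5982 to 6064 CPM in WT HSC, and after subtraction to 10430 to 11060 CPM in KO-labelled and 7905 to 8101 CPM in WT HSC. Mecom, a stem cell transcription factor, averaged 5312 CPM in KO-labelled and 1860 CPM in WT HSC, while Procr, a stem cell surface receptor, averaged 22.5 CPM in KO-labelled and 55.2 CPM in WT HSC. The megakaryocyte list summed to 1020 to 1091 CPM in KO-labelled and 637 to 689 CPM in WT HSC. Less the background, it summed to 938 to 1014 CPM in KO-labelled and 838 to 890 CPM in WT HSC. The mature T-cell list was at 19.4 to 33.6 CPM in KO-labelled and 70.2 to 112 CPM in WT HSC, and the erythroid list at 75.7 to 85.6 CPM in KO-labelled and 152 to 189 CPM in WT HSC. The plasmacytoid dendritic cell list was at 0.672 to 5.89 CPM in KO-labelled and 14.5 to 26.1 CPM in WT HSC. The part of these lists in the differences in HSC was not tested.

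In MPP2-labelled libraries, where the lymphoid members were most abundant, Flt3 and Notch1 were lower in KO-labelled cells. These were 2 of 8 members called lower (4.18% of all genes) and 0 called higher (3.73%) as deposited, and after subtraction 2 of 7 lower (3.08%) and 0 higher (1.63%). Flt3 was at 621, 522 and 478 CPM in KO-labelled MPP2, against 1175, 1144 and 1075 CPM in WT MPP2. The highest KO-labelled library was well below the lowest WT library, and the log2 fold change was -1.07 ± 0.11 (2.09-fold; adjusted p = 1.11e-09; -1.22 after subtraction). Notch1 was at 168, 207 and 202 CPM in KO-labelled MPP2, against 296, 281 and 298 CPM in WT MPP2. The groups did not overlap, and the log2 fold change of -0.60 ± 0.17 (adjusted p = 0.0189; -0.76 after subtraction, adjusted p = 0.035) lost its call without WT replicate 1 (adjusted p = 0.0669), WT replicate 3 (0.0694) or KO-labelled replicate 1 (0.106).

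The other lymphoid members of MPP2-labelled cells missed the threshold. Dntt was at 422, 416 and 405 CPM in KO-labelled MPP2, against 583, 560 and 553 CPM in WT MPP2 (log2 -0.45 ± 0.19, adjusted p = 0.151). Satb1 was at 455, 440 and 418 CPM in KO-labelled MPP2, against 560, 611 and 574 CPM in WT MPP2 (log2 -0.41 ± 0.14, adjusted p = 0.0705). Neither pair of groups overlapped, and DESeq2 called both (adjusted p of 0.0388 for Dntt and 0.0174 for Satb1). Il7r went the other way, at 85.9, 128 and 108 CPM in KO-labelled MPP2, against 70.4, 82.7 and 66.6 CPM in WT MPP2 (log2 0.55 ± 0.31, adjusted p = 0.308). Cd34 at 174 to 231 CPM in KO-labelled and 266 to 276 CPM in WT MPP2, and Cd48 at 51.5 to 64.4 CPM in KO-labelled and 79.3 to 95.2 CPM in WT MPP2, were not called (adjusted p of 0.171 and 0.274). In these libraries the erythroid list summed to 193 to 237 CPM in KO-labelled and 314 to 353 CPM in WT, and the megakaryocyte list to 38.5 to 78.8 CPM in KO-labelled and 121 to 130 CPM in WT. The conventional dendritic cell list was at 38.01 to 65.1 CPM in KO-labelled and 89.9 to 104 CPM in WT, and the plasmacytoid one at 1.92 to 8.87 CPM in KO-labelled and 17.7 to 20.8 CPM in WT. The mature T-cell list was at 111 to 140 CPM in KO-labelled and 81.3 to 105 CPM in WT. The granulocyte and monocyte list was at 2266 to 2277 CPM in KO-labelled and 1850 to 2036 CPM in WT. Less the background, the latter summed to 2235 to 2241 CPM in KO-labelled and 2004 to 2222 CPM in WT. The part of these lists in the differences in MPP2 was not tested.

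In MPP4-labelled libraries Dntt and Satb1, which were low there in WT, were higher in KO-labelled cells. Il7r, called higher in WT MPP4 than in WT HSC or WT MPP1, was lower in KO-labelled cells. As deposited 4 of 8 members were called higher (11.4% of all genes) and 1 lower (6.47%), and after subtraction 2 of 7 higher (4.48%) and 1 lower (2.85%). Of all genes called, 63.8% were higher, and 44.1% with median-of-ratios size factors. Satb1 was at 119, 86.6 and 91.9 CPM in KO-labelled MPP4, against 32.1, 44.3 and 31.6 CPM in WT MPP4. The groups were well apart (log2 1.46 ± 0.16, adjusted p = 6.12e-09; 2.01 ± 0.29 after subtraction, adjusted p = 7.12e-05). Dntt was at 39.3, 39.6 and 52.6 CPM in KO-labelled MPP4, against 13.4, 16.3 and 24.1 CPM in WT MPP4 (log2 1.30 ± 0.23, adjusted p = 5.82e-05; 1.39 after subtraction, adjusted p = 0.013). Il7r was at 9.97, 11.6 and 17.5 CPM in KO-labelled MPP4, against 33.0, 26.7 and 32.9 CPM in WT MPP4. All KO-labelled values were below all WT values (log2 -1.24 ± 0.34, adjusted p = 0.00675; -1.80 after subtraction, adjusted p = 0.016), so in these cells Il7r and Dntt moved in opposite directions.

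Cd34 was at 85.9, 102 and 87.0 CPM in KO-labelled MPP4, against 34.2, 67.7 and 48.2 CPM in WT MPP4, and its call (log2 0.87 ± 0.19, adjusted p = 0.000959) was lost after subtraction (0.57, adjusted p = 0.131). Background was 3.37% of the Cd34 count in KO-labelled and 9.06% in WT MPP4. Flt3 was at 75.3, 85.5 and 91.3 CPM in KO-labelled MPP4, against 80.5, 54.1 and 58.8 CPM in WT MPP4. The groups overlapped, and the call of Flt3 (log2 0.38 ± 0.12, adjusted p = 0.0248) was lost after subtraction (adjusted p = 0.546), with DESeq2 (0.252), with median-of-ratios size factors (0.251) and without WT replicate 2 or 3 or KO-labelled replicate 2 or 3 (0.0644 to 0.193). Notch1 was at 39.3, 35.4 and 41.8 CPM in KO-labelled MPP4, against 27.9, 35.1 and 49.9 CPM in WT MPP4, within the spread of the WT libraries (log2 0.05 ± 0.19, adjusted p = 0.889). Cd48 was at 37.2 to 56.8 CPM in KO-labelled and 34.2 to 42.5 CPM in WT MPP4 (adjusted p = 0.52).

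**Figure D4:**
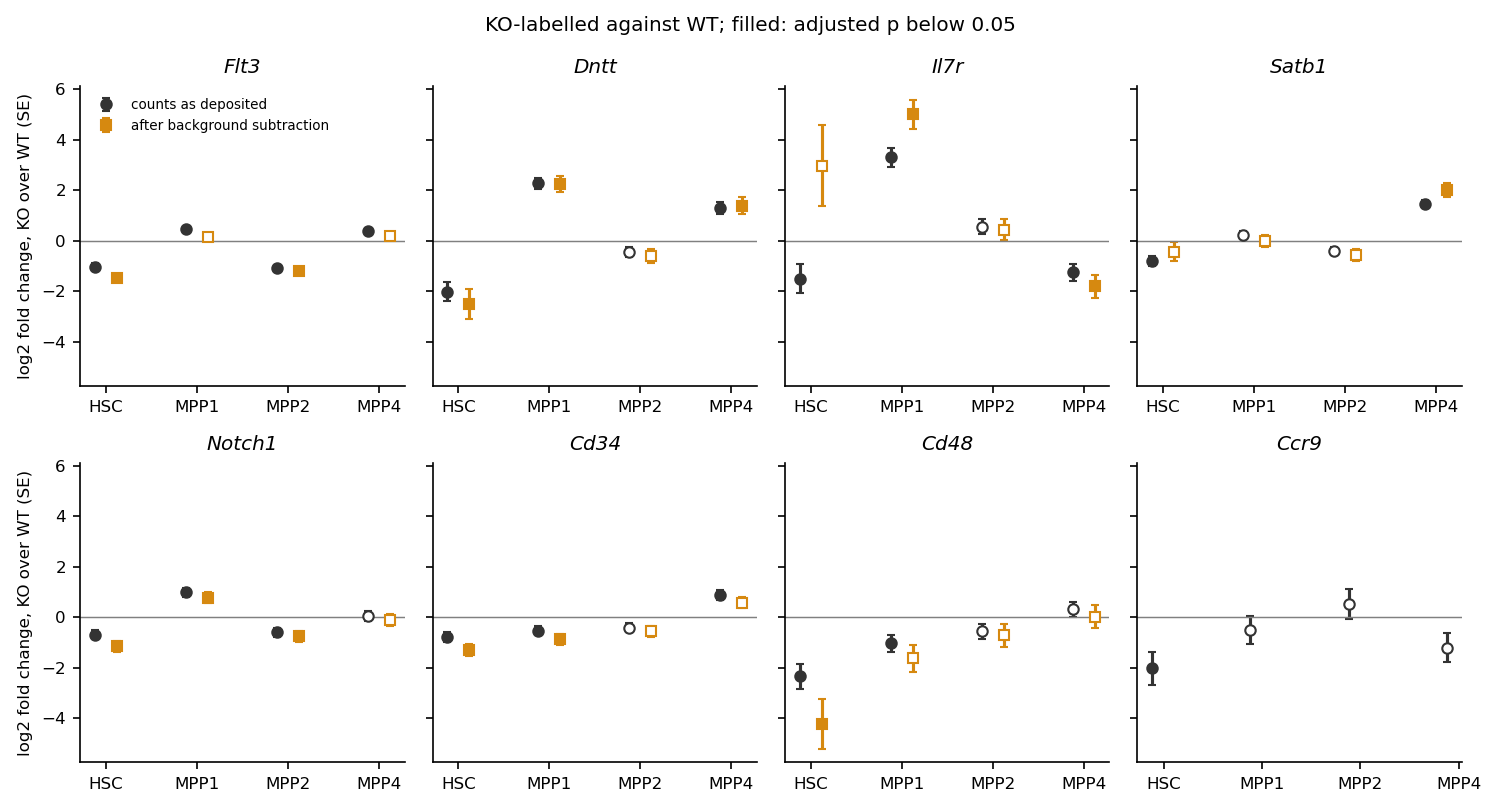
Log2 fold change of KO-labelled over WT libraries with its SE for 8 members in 4 populations, from the counts as deposited (circles) and after background subtraction (squares); filled symbols have an adjusted p below 0.05. Dntt was 2.27 in MPP1 and -2.03 in HSC, and Ccr9 has no value after subtraction because it did not pass the filter.

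With these opposite directions, the average over the 4 populations said little. As deposited 0 of 8 members were called higher (22.9% of all genes) and 3 lower (30.3%), namely Flt3 (log2 -0.32 ± 0.06, adjusted p = 2.9e-05), Cd48 (-0.91 ± 0.19, adjusted p = 0.000101) and Ccr9 (-0.80 ± 0.30, adjusted p = 0.0217). After subtraction 1 of 7 was called higher (9.59%) and 4 lower (14%). The 1 called higher was Il7r (log2 1.65 ± 0.48, adjusted p = 0.0167). Its average takes in HSC, where Il7r was at background in both genotypes, so no weight is put on this call. The interaction of Dntt had an adjusted p of 1.54e-11, that of Flt3 1.23e-11 and that of Il7r 8.43e-09, and all 3 were also called after subtraction (6.09% of all genes). Ccr9 had no call there (adjusted p = 0.131).

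Beside the members, 7 lists of genes of the same pathways were read. Over all genes tested the median log2 fold change of KO-labelled over WT was -0.31 in HSC, -0.10 in MPP1, -0.071 in MPP2 and -0.078 in MPP4, and the list medians below are to be read beside these. Called higher were 18.3% of all genes in HSC, 8.71% in MPP1, 3.73% in MPP2 and 11.4% in MPP4, and after subtraction 4.42%, 3.19%, 1.63% and 4.48%. Called lower were 24.8%, 4.9%, 4.18% and 6.47% of all genes in the same order, and after subtraction 4.19%, 2.83%, 3.08% and 2.85%. The IL-7 receptor works through Jak1 and Jak3, Stat5 and targets that keep cells alive. Of 10 genes tested in this list, 5 were called higher in KO-labelled HSC, 3 in MPP1, 2 in MPP2 and 4 in MPP4, and 0 lower in each, and after subtraction these counts were 1, 2, 2 and 3 higher, with 1 lower in HSC and 1 in MPP2. The median log2 fold change of this list was 0.21 in HSC, 0.45 in MPP1, 0.022 in MPP2 and 0.14 in MPP4. Bcl2, which blocks cell death and is induced by IL-7 in lymphocytes, was called higher in all 4 populations, as deposited and after subtraction. It was at 1184 ± 71.1 CPM in KO-labelled and 299 ± 9.42 CPM in WT HSC (log2 1.98 ± 0.09, adjusted p = 6.6e-22), and at 580 ± 20.8 CPM in KO-labelled and 239 ± 33.8 CPM in WT MPP1 (log2 1.28 ± 0.09, adjusted p = 3.63e-15). It was at 1479 ± 31.9 CPM in KO-labelled and 807 ± 33.8 CPM in WT MPP2 (log2 0.87 ± 0.08, adjusted p = 1.37e-10), and at 723 ± 55.4 CPM in KO-labelled and 362 ± 34.9 CPM in WT MPP4 (log2 1.00 ± 0.09, adjusted p = 4.19e-12). This rise in HSC and in MPP4-labelled cells stands beside an Il7r level that was at background in HSC and lower in KO-labelled MPP4. Pim1, a kinase that is a Stat5 target, was at 69.0 ± 2.02 CPM in KO-labelled and 22.3 ± 4.31 CPM in WT MPP4 (log2 1.63 ± 0.21, adjusted p = 8.62e-08; 1.31 after subtraction, adjusted p = 7.47e-05). Jak3, the kinase of the shared cytokine receptor chain, was higher in KO-labelled MPP1 (log2 0.96 ± 0.15, adjusted p = 3.87e-06) and MPP4 (1.11 ± 0.15, adjusted p = 3.72e-07), and both calls held after subtraction.

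Of 30 Notch pathway genes tested, 8 were called higher and 2 lower in KO-labelled HSC, 8 and 0 in MPP1, 3 and 2 in MPP2 and 4 and 0 in MPP4, where 11.4% of all genes were higher, a like share. Of the 28 tested after subtraction, 1 was called higher and 1 lower in HSC, 2 and 1 in MPP1, 2 and 2 in MPP2 and 2 and 1 in MPP4. The list median was 0.22 in HSC, 0.32 in MPP1, 0.11 in MPP2 and 0.12 in MPP4. In MPP1 the leading genes were Il2ra, Gata3 and Notch2. The rise of Notch2, a receptor (log2 0.42 ± 0.09, adjusted p = 0.000754), lost its call after subtraction (adjusted p = 0.487). Il2ra, a receptor chain of early thymocytes, was at 88.4 ± 4.29 CPM in KO-labelled and 15.7 ± 4.71 CPM in WT MPP1 (log2 2.49 ± 0.33, adjusted p = 2.5e-07). Gata3, a T-lineage transcription factor, was at 82.2 ± 8.36 CPM in KO-labelled and 21.1 ± 2.92 CPM in WT MPP1 (log2 1.96 ± 0.27, adjusted p = 6.05e-07). Both calls held after subtraction. In MPP2-labelled cells Il2ra was at 148 ± 45 CPM in KO-labelled and 15.2 ± 5.19 CPM in WT libraries (log2 3.28 ± 0.34, adjusted p = 8.6e-10; 3.66 after subtraction, adjusted p = 0.00663), while Notch1 itself was lower. The co-activators Maml2 and Maml3 were lower in KO-labelled MPP2 (log2 -0.97 ± 0.08 and -0.64 ± 0.07, adjusted p = 8.49e-13 and 1.33e-09) and higher in KO-labelled HSC (0.75 ± 0.08 and 0.64 ± 0.07, adjusted p = 1.62e-10 and 4.5e-10). After subtraction the call of Maml3 in HSC was lost (adjusted p = 0.132).

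The Flt3 signalling list runs from adaptors to phosphatases. Of 12 tested, 7 were called higher in KO-labelled HSC, 7 in MPP1, 1 in MPP2 and 7 in MPP4, with 1 lower in MPP2, while after subtraction 2 were higher, both in MPP4, and 1 was lower in HSC and 1 in MPP2. The list median was 0.43 in HSC, 0.46 in MPP1, 0.076 in MPP2 and 0.38 in MPP4. Gab2, a docking protein of growth factor receptors, was at 409 ± 44.8 CPM in KO-labelled and 225 ± 9.82 CPM in WT MPP4 (log2 0.86 ± 0.11, adjusted p = 1.27e-07; 0.69 after subtraction, adjusted p = 0.000988). Inpp5d, the lipid phosphatase SHIP1, was called lower in KO-labelled MPP2, as was Flt3, at 935 ± 39.6 CPM in KO-labelled and 1258 ± 59.4 CPM in WT libraries (log2 -0.43 ± 0.07, adjusted p = 6.39e-05; -0.58 after subtraction, adjusted p = 9.58e-06). In KO-labelled MPP1 Inpp5d was called higher as deposited (log2 0.35 ± 0.07, adjusted p = 0.000798) and not after subtraction (adjusted p = 0.927). Flt3l, the ligand, is in the list and was listed at 0 in all 24 libraries. In the other lists Il2rg, the shared cytokine receptor chain, was at 0 in every group. So were Cd7, Cd27, Gpr183, Nrarp, Ly9, Ccl19, Ackr4 and Ccl21a. As for Rag1 and Rag2, no level is drawn from these 0 counts.

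The end-joining genes that complete V(D)J recombination with Dntt showed 5 of 13 called higher in KO-labelled HSC, 2 in MPP1, 0 in MPP2 and 4 in MPP4, and 0 lower. After subtraction 3 were higher in HSC and 1 in MPP4, and 1 was lower in MPP1. Their median was 0.44 in HSC, 0.26 in MPP1, 0.12 in MPP2 and 0.39 in MPP4. Hmgb1, a DNA-bending cofactor of the Rag proteins, was at 147 ± 10.5 CPM in KO-labelled and 77.6 ± 10.3 CPM in WT HSC (log2 0.92 ± 0.14, adjusted p = 1.24e-06; 0.78 after subtraction, adjusted p = 0.000739).

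Among 11 other genes of lymphoid-primed progenitors, 4 were called higher and 3 lower in KO-labelled HSC, 5 and 1 in MPP1, 2 and 1 in MPP2 and 3 and 0 in MPP4. After subtraction 1 was higher and 2 lower in HSC, 3 and 1 in MPP1, 0 and 2 in MPP2 and 2 and 0 in MPP4. Their median was -0.67 in HSC, 0.83 in MPP1, 0.30 in MPP2 and -0.17 in MPP4. Blnk, the adaptor of the B-cell receptor, was at 70.0 ± 12.8 CPM in KO-labelled and 21.8 ± 3.6 CPM in WT MPP1 (log2 1.68 ± 0.24, adjusted p = 1.32e-06) and at 7.18 ± 3.61 CPM in KO-labelled and 20.2 ± 3.35 CPM in WT HSC (log2 -1.47 ± 0.29, adjusted p = 6.33e-05). After subtraction it was called in both (log2 2.22 and -1.83, adjusted p = 0.00175 and 0.0258). Mef2c, a lymphoid transcription factor, was lower in KO-labelled MPP2 (log2 -0.53 ± 0.12, adjusted p = 0.00275; -0.68 after subtraction, adjusted p = 0.00259). It was higher in KO-labelled HSC as deposited (log2 0.76 ± 0.12, adjusted p = 2.97e-06), a call lost after subtraction (adjusted p = 0.0701).

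Of 7 thymus homing genes tested beside Ccr9, 3 were called higher and 1 lower in KO-labelled HSC, 3 and 0 in MPP1, 1 and 0 in MPP2 and 4 and 0 in MPP4, and after subtraction 1 and 1, 1 and 0, 1 and 0, and 2 and 0. Their median was 0.17 in HSC, 0.48 in MPP1, -0.052 in MPP2 and 0.54 in MPP4. Cxcr4, which holds progenitors in the marrow and is used in the thymus, was at 157 ± 7.95 CPM in KO-labelled and 42.9 ± 9.41 CPM in WT MPP4 (log2 1.87 ± 0.17, adjusted p = 1.91e-11; 1.51 after subtraction, adjusted p = 2.34e-06). Selplg, the P-selectin ligand through which progenitors enter the thymus, was higher in KO-labelled HSC (log2 1.20 ± 0.15, adjusted p = 2.2e-08), MPP1 (1.21 ± 0.15, adjusted p = 8.87e-08) and MPP4 (1.27 ± 0.15, adjusted p = 3.54e-08), and all 3 calls held after subtraction. Of 10 genes of the SLAM family, to which Cd48 belongs, 2 were called higher and 2 lower in KO-labelled HSC, near the 18.3% and 24.8% of all genes, 1 and 0 in MPP1, 1 and 0 in MPP2 and 2 and 0 in MPP4, and 0 in each after subtraction. The median of these 10 was -0.96 in HSC, -0.57 in MPP1, -0.21 in MPP2 and -0.066 in MPP4. Slamf1 was at 250 ± 30.9 CPM in KO-labelled and 72.3 ± 3.41 CPM in WT HSC (log2 1.79 ± 0.33, adjusted p = 2.31e-05; 1.34 after subtraction, adjusted p = 0.249), so as deposited it went opposite to Cd48.

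**Figure D5:**
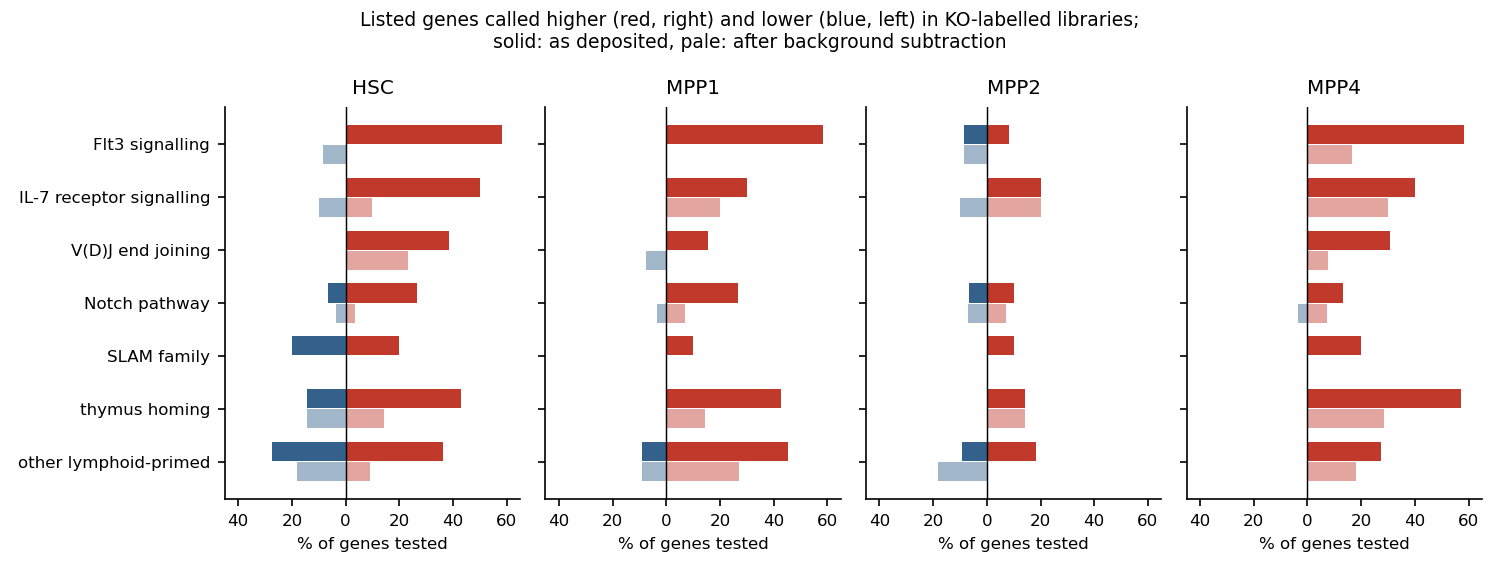
Share of the tested genes of 7 pathway lists (%) called higher (red, to the right) and lower (blue, to the left) in KO-labelled libraries of each population, from the counts as deposited (solid) and after background subtraction (pale). As deposited, 7 of 12 Flt3 signalling genes were higher in HSC, MPP1 and MPP4, and after subtraction 0, 0 and 2.

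Markers of mature lymphoid and other cells were summed in MPP1 and MPP4, where Il7r, Dntt or Satb1 was higher. The 10 mature T-cell genes summed to 91.7 to 126 CPM in KO-labelled and 79.6 to 94.1 CPM in WT MPP1, and after subtraction to 64.1 to 104 CPM in KO-labelled and 37.6 to 61.0 CPM in WT MPP1, with no overlap. In MPP4-labelled cells they summed to 102 to 126 CPM in KO-labelled and 94.1 to 105 CPM in WT libraries. Less the background, these were 76.7 to 98.4 CPM in KO-labelled and 58.8 to 66.3 CPM in WT MPP4, with no overlap. The 7 NK-cell genes summed to 2.33 to 16.6 CPM in KO-labelled and 8.79 to 15.5 CPM in WT MPP1. The 8 mature B-cell genes summed to 63.6 to 104 CPM in KO-labelled and 82.1 to 96.8 CPM in WT MPP1, with Ms4a1 at 0 in every group. In MPP4-labelled cells these B-cell genes summed to 53.8 to 119 CPM in KO-labelled and 127 to 154 CPM in WT libraries. After subtraction they summed there to 36.7 to 98.5 CPM in KO-labelled and 109 to 151 CPM in WT libraries. The 5 plasmacytoid dendritic cell genes summed to 8.56 to 17.9 CPM in KO-labelled and 11.9 to 15.2 CPM in WT MPP1. The erythroid list moved with genotype in MPP1, at 66.8 to 97.4 CPM in KO-labelled and 622 to 668 CPM in WT libraries, and so did the granulocyte and monocyte list, at 43.6 to 60.8 CPM in KO-labelled and 179 to 225 CPM in WT libraries. In MPP4-labelled cells the erythroid list was at 284 to 370 CPM in KO-labelled and 714 to 811 CPM in WT libraries, and the granulocyte and monocyte list at 401 to 449 CPM in KO-labelled and 154 to 181 CPM in WT libraries. The stem cell list was at 7234 to 7578 CPM in KO-labelled and 5754 to 5893 CPM in WT MPP1. Less the background, it summed to 7986 to 8349 CPM in KO-labelled and 7925 to 8052 CPM in WT MPP1, ranges that overlap. This list was at 3261 to 3373 CPM in KO-labelled and 1966 to 2083 CPM in WT MPP4. Less the background, it summed to 3759 to 3871 CPM in KO-labelled and 2706 to 2863 CPM in WT MPP4. The conventional dendritic cell list was at 56.2 to 62.1 CPM in KO-labelled and 114 to 135 CPM in WT MPP1. In MPP4-labelled cells it was at 47.3 to 69.5 CPM in KO-labelled and 74.7 to 113 CPM in WT libraries. The megakaryocyte list there was at 136 to 199 CPM in KO-labelled and 256 to 264 CPM in WT libraries. In MPP1 the megakaryocyte list was at 270 to 311 CPM in KO-labelled and 232 to 258 CPM in WT libraries. Less the background, it summed there to 283 to 327 CPM in KO-labelled and 285 to 330 CPM in WT libraries, ranges that overlap. The part of these lists in the rises of Il7r, Dntt and Satb1 was not tested.

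Over the 24 libraries the levels of the lymphoid members ran together, as a description of libraries that share their groups. Pearson's r of log2 CPM was 0.94 between Dntt and Satb1, 0.92 between Flt3 and Satb1 and 0.68 between Flt3 and Il7r. Among 12714 genes, those most like Il7r were Blnk (r = 0.97), Kcng1 (0.91) and Grap2 (0.90). Those most like Flt3 were Dhrs3 (0.94), Emb (0.93) and St8sia4 (0.92), those most like Dntt were Cep85 (0.93), Arpp21 (0.93) and Clec12a (0.92), and those most like Satb1 were Emb (0.96), Cep85 (0.95) and Arap2 (0.94). Notch1 was most like Rcsd1 (0.96), Lyst (0.94) and Arid5b (0.93), Cd34 most like Cd53 (0.93), BC035044 (0.92) and Trps1 (0.91), and Cd48 most like Cst7 (0.94), Plac8 (0.92) and Tespa1 (0.92).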

How the data were processed

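RNA sequencing gave 24 libraries in 8 groups of 3, grouped by the titles. The authors deposited raw counts of reads for each gene as whole numbers. The submitters' processing notes name the build mm39 and the tools SAMtools 1.12 and DESeq2 without their roles. The aligner, counter, annotation and strand setting are not given in the sources used here. All 24 columns were matched by the description field.

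Of 56748 genes, 21964 passed filterByExpr in edgeR 4.0.16 (R 4.3.3). Total counts of 2540511 to 3807003 per library, which set the precision, were scaled by the trimmed mean of M-values, and 1 quasi-likelihood fit with a mean per group (16 residual degrees of freedom) was used for every contrast. P-values were adjusted by Benjamini-Hochberg over all genes tested, with calls at an adjusted p under 0.05. A fold change is a log2 value with an SE derived from the test statistic. The members and the lists were chosen with earlier results of these data known.

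Background was the count per kb of span over 1769 receptor genes, times the span of each gene in GENCODE M21 (GRCm38), in which 91.8% of identifiers were found. Over silent genes of 3 other families, the observed count was 1.14 to 1.6 times this estimate. A second fit, of 18430 genes, used counts less this background. No 2 libraries of 1 group agreed within sampling noise (chi-square per gene of 4.32 to 10.3). Named pathway genes were up to 3 called genes of a list with the smallest p, and genes of like level were the 3 with the highest Pearson's r among genes of at least 5 CPM. The code was tested on simulated data. Alternatives were median-of-ratios size factors, other filters, DESeq2 1.42.0, a fit of 6 libraries, a replicate block, leaving out each library in turn, and both subtractions.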

Additional observations from a re-analysis of the deposited data

Results flagged for a closer look

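The difference between KO-labelled and WT libraries changed with the population for 7 members, by the interaction test of edgeR with Benjamini-Hochberg adjustment over all genes. The adjusted p was 1.23e-11 for Flt3, which was lower in KO-labelled HSC and MPP2-labelled cells and not in MPP1 or MPP4-labelled cells. It was 1.54e-11 for Dntt and 2.79e-09 for Satb1. For Il7r it was 8.43e-09, with a log2 fold change of 3.31 in MPP1 and -1.24 in MPP4-labelled cells. It was 2.69e-06 for Notch1 and 3.95e-05 for Cd34. For Cd48 it was 0.00503, and after background subtraction 0.0753, which missed the threshold. For the other 6 the interaction was called after subtraction as well.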

How the results depend on the processing

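In the 3 libraries of a group, 1 library can decide a call. Of 192 values of members with 1 library left out, 166 kept their direction and side of the threshold, 22 lost the call and 4 turned sign, and of 250 under the other alternatives 214 kept both. In HSC 8 members were called as deposited and 5 with either subtraction, in MPP4 5 and 3 with either subtraction, and for the average 3 and 5 with either subtraction. In MPP2 2 were called as deposited, 4 with DESeq2, 6 in a fit of only the 6 libraries compared, and 1 to 2 with a library left out. With a library left out, the average had 2 to 5 calls, with 5 without KO-labelled HSC replicate 3. The second subtraction, over span in no other gene, was chosen after seeing the data.

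Estimates that turned sign were not called under the alternative. Il7r in HSC was 2.97 and 2.96 with the subtractions. Satb1 in MPP1 was -0.014 and -0.044, and Cd48 in MPP4 was -0.019 with the second. Notch1 in MPP4 was -0.12 with median-of-ratios size factors, -0.12 with DESeq2, -0.11 and -0.14 with the subtractions, -0.000854 in the fit of 6 libraries and -0.12 to 0.30 with a library left out. Ccr9 ran from -0.86 to 0.20 in MPP1 and from -0.28 to 0.93 in MPP2 with a library left out. The cause was not tested.

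Median-of-ratios size factors shifted the median log2 fold change of all genes by -0.15 in HSC, -0.10 in MPP1, -0.03 in MPP2 and -0.17 in MPP4. Replicate numbers did not pair the samples (r of -0.01 to 0.02 over 12 pairs with the same number, 0 over 0.1). With the replicate block 5 members were called in MPP1, without it 6, as Cd34 had an adjusted p of 0.0531, and the other counts did not change. Levels near background limit what can be said of Il7r, Cd48, Satb1 and Dntt in HSC.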
